A study of Lytechinus variegatus with 18 samples.

Results

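The transcription factor genes of the anterior neuroectoderm examined here are Sp-Z133, the sea urchin fez gene, together with Sp-Nkx2-1, Sp-FoxQ2 and Sp-Six3, written below without the prefix Sp-. They were taken from the deposited annotation by name, in upper or lower case and with any numbered suffix, which gave 6 of 27230 gene models under 4 names. FoxQ2 and Six3 are each carried by a pair of gene models, called copy 1 and copy 2 below. All 6 models passed the filter on low counts, which 18674 models passed in all, and the lowest count of any of them in a library was 44.

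The libraries came from whole embryos of Lytechinus variegatus, a sea urchin used to study development, labelled WT for genotype. Embryos given ethanol at fertilization were collected at 15, 18 and 21 hours post fertilization (hpf), and control embryos were collected at the same times. Each of the 6 groups had 3 biological replicates, and RNA of about 150 embryos was pooled for each sample. The ethanol dose, the handling of the control embryos and the parents of each replicate are not given in the sources used here. The p-values therefore measure only the spread between these samples, which may be technical.

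The anterior neuroectoderm is the territory at the animal pole of the embryo, and it gives rise to the apical organ with its sensory cilia and serotonergic neurons. In sea urchins, Wnt signals from the posterior end push this territory back during early development until it occupies only the pole. Six3, a homeodomain factor, and FoxQ2, a forkhead factor, act early in the gene network that sets up and holds the territory. Nkx2-1, a homeodomain factor, and fez, a zinc finger factor, are expressed within it as it matures, and in Strongylocentrotus purpuratus fez supports the number of serotonergic neurons.

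The gene models carry names of their best hits in S. purpuratus, and their positions are those of the deposited annotation, whose genome build is not given in the sources used here. Z133 (L_var_06276) lies on the minus strand of chromosome 3 from 22512299 to 22513798, and its S. purpuratus hit has 79.1% identity. Its best UniProt hit is a Xenopus protein of the Fez family, FEZF1_XENTR. Nkx2-1 (L_var_13911) lies on the minus strand of chromosome 7 from 31111388 to 31115831, with 84.7% identity to its hit. FoxQ2 copy 1 (L_var_17029) lies on the minus strand of chromosome 10 from 2930414 to 2931403, with 80.4% identity. FoxQ2 copy 2 (L_var_17031) lies on the plus strand from 2970346 to 2971341, with 80.1% identity, and 38942 bases separate the 2 models. Six3 copy 1 (L_var_13792) and Six3 copy 2 (L_var_13793) lie on the minus strand of chromosome 7, from 27517067 to 27533465 and from 27915021 to 27931670. Both have 96.8% identity to the same S. purpuratus hit. How alike the copies are to each other was not measured. If they are near-identical, their reads may have been divided between the models or dropped. The levels of the FoxQ2 and Six3 models are therefore uncertain.

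The 18 libraries had total counts from 7133636 to 8000894. The pair of libraries labelled ethanol and control of replicate 3 at 21 hpf stood apart from the rest. Leaving out the members, 1493 gene models had ethanol libraries all on the same side of the control libraries at both 15 and 18 hpf. At 21 hpf, 92.4% of these models kept that direction between the libraries of replicate 1 and 92.3% between those of replicate 2, but only 4.76% between the libraries labelled as replicate 3. Whether the labels of these 2 libraries were exchanged was not tested. If they were, this pair's differences would have the opposite sign. The labels were kept as given, and tests of the members that include 21 hpf are given with and without this pair.

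Z133 was the member with the largest difference between ethanol and control embryos. At 15 hpf it stood at 4.89, 8.07 and 7.48 CPM (counts relative to the library size, scaled with the TMM method) in the ethanol libraries of replicates 1, 2 and 3, against 22.5, 31.3 and 27.5 CPM in the control libraries. At 18 hpf it stood at 20.2, 17.9 and 20.5 CPM in ethanol embryos, against 35.6, 40.8 and 40.7 CPM in control embryos. All ethanol libraries were below all control libraries at both times. The same was found for 7.46% of all models at 15 hpf and for 13.8% at 18 hpf. At 21 hpf Z133 stood at 24.9, 23.5 and 38.9 CPM in ethanol embryos, against 39.6, 42.4 and 21.5 CPM in control embryos. There the groups overlapped through replicate 3, where the library labelled ethanol was the higher of its pair.

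In edgeR's quasi-likelihood test with Benjamini-Hochberg adjustment over all gene models, Z133 fell in ethanol embryos at 15 hpf, with a log2 fold change of -1.99 (SE 0.29, adjusted p 0.0124). This is 3.98-fold lower. It was 1 of 11 gene models called at an adjusted p under 0.05 at 15 hpf, which are 0.0589% of those tested and were all lower in ethanol embryos. At 18 hpf the log2 fold change was -0.999 (SE 0.28), and Z133 was not called in the fit without a replicate block (adjusted p 0.229). The replicate block fits a shared offset for all libraries of the same replicate number across the 3 times. With it the log2 fold change was -0.99 and Z133 was called (adjusted p 0.0483), as were 4.07% of all models. At 21 hpf the log2 fold change was -0.24 (SE 0.27, adjusted p 1.00). Leaving out the 21 hpf pair of replicate 3 gave -0.76 at 21 hpf (adjusted p 0.269), where 0.0628% of models were then called. The adjusted p then became 0.00185 at 15 hpf and 0.0318 at 18 hpf, where 0.414% and 1.65% of models were called. With the block added to that setting Z133 was called at 21 hpf (-0.76, adjusted p 0.026), as were 10.7% of models. Leaving out all libraries of replicate 1, 2 or 3 kept the log2 fold change at 15 hpf between -2.06 and -1.90 but ended the call each time, with adjusted p-values of 0.757, 0.257 and 0.151.

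Nkx2-1 differed in the same direction as Z133, by less at 15 and 18 hpf. At 15 hpf it stood at 67.8, 100.1 and 81.5 CPM in ethanol embryos, against 170.3, 184 and 197 CPM in control embryos. At 18 hpf the values were 171, 165 and 159 CPM in ethanol embryos, against 207, 217 and 195 CPM in control embryos. The groups did not overlap at either time, with ethanol lower, as for 7.46% and 13.8% of all models at 15 and 18 hpf. At 21 hpf Nkx2-1 stood at 171, 169.98 and 196 CPM in ethanol embryos, against 232, 255 and 148 CPM in control embryos. Again the ethanol library was the higher only in replicate 3.

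The log2 fold change of Nkx2-1 at 15 hpf was -1.14 (SE 0.22), which is 2.21-fold lower, with an adjusted p of 0.0987 in edgeR's test. With the replicate block it was -1.15 and Nkx2-1 was called at 15 hpf (adjusted p 0.0239), as were 0.477% of all models. It was also called without the 21 hpf pair of replicate 3, at an adjusted p of 0.0161, as were 0.414% of models. At 18 hpf the log2 fold change was -0.32 (SE 0.22, adjusted p 0.429), and at 21 hpf it was -0.24 (SE 0.21, adjusted p 1.00). Without the pair of replicate 3 it was -0.52 at 21 hpf (adjusted p 0.417).

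FoxQ2 was at its highest in control embryos at 15 hpf, and there the ethanol libraries were lower. At 15 hpf copy 1 stood at 137, 173 and 111 CPM in ethanol embryos, against 279.5, 259.8 and 219 CPM in control embryos. Copy 2 stood at 118, 194 and 107.5 CPM in ethanol embryos, against 249, 264 and 253 CPM in control embryos. For neither copy did the groups overlap, and 7.46% of all models had ethanol libraries all lower there. The log2 fold changes were -0.85 for copy 1 (SE 0.44, adjusted p 0.492) and -0.87 for copy 2 (SE 0.39, adjusted p 0.443), and neither was called. With the replicate block and without the 21 hpf pair of replicate 3, both copies were called at 15 hpf, at adjusted p-values of 0.0356 and 0.0351, as were 15.4% of all models.

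At the later times the FoxQ2 libraries spread widely within groups. At 18 hpf copy 1 stood at 225, 95.6 and 86.2 CPM in ethanol embryos, against 203, 144 and 127 CPM in control embryos. Copy 2 stood at 192, 114 and 97.8 CPM in ethanol embryos, against 166, 134 and 175 CPM in control embryos. In replicate 1 the ethanol library was the higher of the pair for both copies, and in replicates 2 and 3 the lower. At 21 hpf copy 1 stood at 158, 61.1 and 54.7 CPM in ethanol embryos, against 88.9, 64.2 and 163 CPM in control embryos. Copy 2 stood at 145, 74.0 and 86.1 CPM in ethanol embryos, against 74.5, 72.8 and 199 CPM in control embryos. The log2 fold changes were -0.22 and -0.23 at 18 hpf (adjusted p 0.807 and 0.763) and -0.21 and -0.18 at 21 hpf (adjusted p 1.00 for both). The sign at 21 hpf rested on the pair of replicate 3, since without it the values were 0.51 and 0.57 (adjusted p 0.743 and 0.621). Those values came mainly from replicate 1, where the log2 ratios of ethanol over control were 0.83 and 0.96. In replicate 2 the ratios were -0.073 and 0.024.

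Six3 did not follow the other members. At 15 hpf copy 1 stood at 15.6, 24.4 and 16.6 CPM in ethanol embryos, against 12.6, 14.3 and 15.7 CPM in control embryos. Copy 2 stood at 15.9, 16.4 and 12.5 CPM in ethanol embryos, against 10.8, 10.4 and 11.6 CPM in control embryos. The ethanol libraries of copy 2 were all above the control libraries, while those of copy 1 overlapped with them. Of all models 6.72% had ethanol libraries all above the control libraries at 15 hpf. At 18 hpf copy 1 stood at 19.3, 24.4 and 18.7 CPM in ethanol embryos, against 19.6, 14.5 and 9.78 CPM in control embryos. Copy 2 stood at 15.3, 13.96 and 12.5 CPM in ethanol embryos, against 10.5, 15.8 and 6.57 CPM in control embryos. Both copies overlapped between the groups at 18 hpf.

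At 21 hpf Six3 copy 1 stood at 16.4, 17.5 and 22.5 CPM in ethanol embryos, against 16.1, 37.2 and 14.2 CPM in control embryos. Copy 2 stood at 8.95, 9.07 and 13.5 CPM in ethanol embryos, against 9.85, 20.4 and 10.4 CPM in control embryos. The control library of replicate 2 held the highest value of both copies at this time. The log2 fold changes of copy 1 were 0.41 (SE 0.34), 0.51 (SE 0.34) and -0.26 (SE 0.34) at 15, 18 and 21 hpf, with adjusted p-values of 0.660, 0.428 and 1.00. Those of copy 2 were 0.45 (SE 0.32), 0.35 (SE 0.32) and -0.36 (SE 0.32), with adjusted p-values of 0.604, 0.570 and 1.00. With the 21 hpf pair of replicate 3 left out the values at 21 hpf were -0.65 for copy 1 and -0.75 for copy 2 (adjusted p 0.565 and 0.502). No Six3 value was called at any time, with or without the replicate block.

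**Figure D1:**
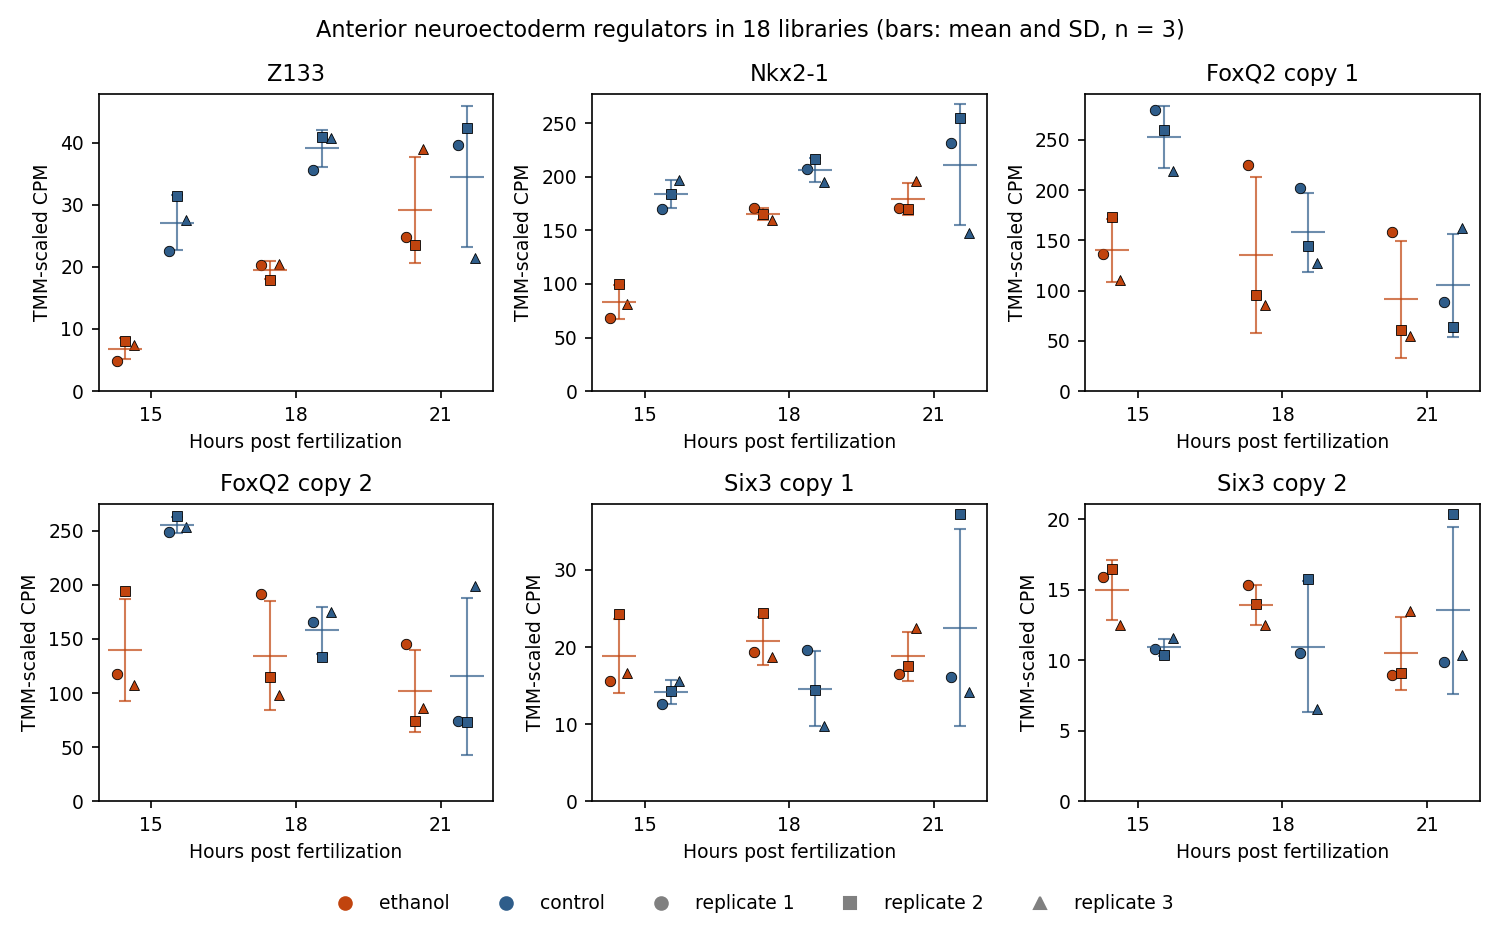
TMM-scaled CPM (vertical axis) of the 6 gene models at 15, 18 and 21 hpf in ethanol and control libraries; symbols mark the replicate, and bars give the mean and SD of 3 libraries. Z133 and Nkx2-1 sit lower in all ethanol libraries at 15 and 18 hpf, both FoxQ2 copies do so at 15 hpf, and at 21 hpf the triangles of replicate 3 run against the other pairs for Z133 and Nkx2-1.

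Within same-numbered pairs of libraries, Z133 was lower in the ethanol library in 8 of 9 pairs, and so was Nkx2-1. For both genes the exception was the pair labelled replicate 3 at 21 hpf, where the log2 ratios were 0.85 and 0.41. FoxQ2 copy 1 was lower in the ethanol library in 7 of 9 pairs and copy 2 in 6 of 9. Six3 copy 1 was higher in the ethanol library in 7 of 9 pairs and copy 2 in 6 of 9. Among all gene models tested, ethanol libraries all below control libraries were found for 7.46% at 15 hpf and 13.8% at 18 hpf, and all above for 6.72% at 15 hpf. At 21 hpf no member had groups that did not overlap, against 1.27% of all models with ethanol libraries all lower and 1.04% with all higher.

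**Figure D2:**
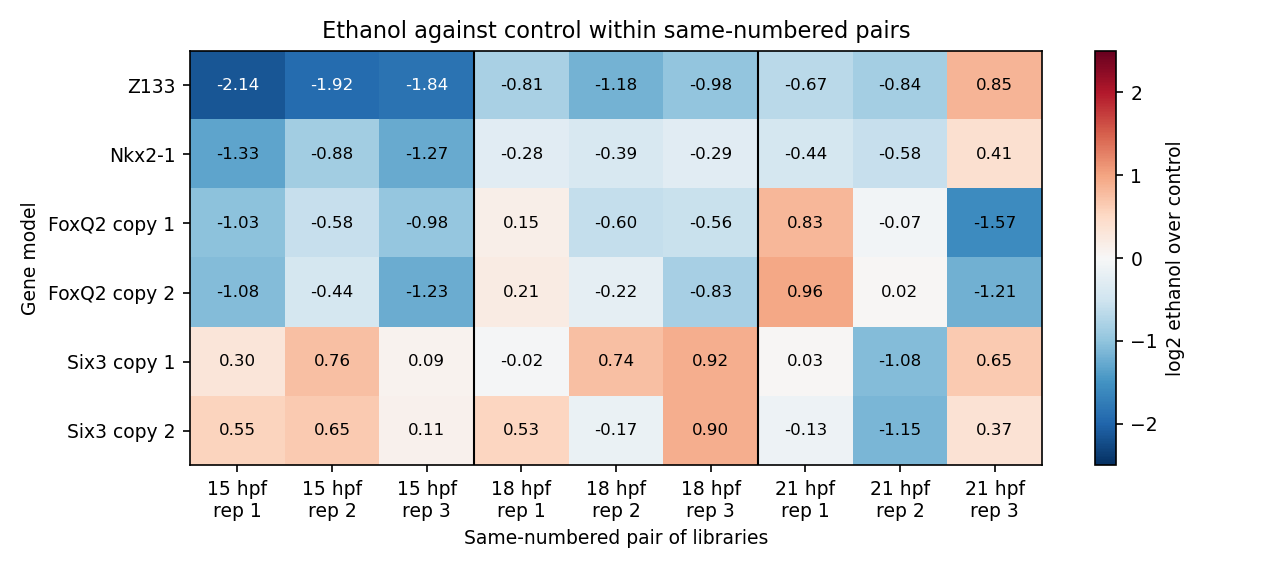
Log2 ratio of the ethanol over the control library (colour and number) for the 6 gene models (rows) in each of 9 same-numbered pairs (columns). Z133 and Nkx2-1 are below 0 in each pair except that of replicate 3 at 21 hpf, and Six3 copy 1 is above 0 in 7 of the 9 pairs.

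Over the 3 times together, Z133 was lower in ethanol embryos by a mean log2 fold change of -1.08 (SE 0.16, adjusted p 0.0121 in edgeR's test). In this comparison 0.530% of models were called, and 0.386% were called lower. The mean was -1.25, with an adjusted p of 0.00015, when the 21 hpf pair of replicate 3 was left out. In that setting 18.3% of models were called. The call was lost without replicate 1 and without replicate 2, at adjusted p-values of 0.557 and 0.258, where 0 models were called. It was kept without replicate 3, at 0.00657, where 1076 of 18592 models were called. Nkx2-1 had a mean of -0.57 (SE 0.12) and an adjusted p of 0.0512 in edgeR's fit without the block. DESeq2 called it (-0.57, adjusted p 0.000552), as it did 1453 of 18674 models. With that pair left out, edgeR gave Nkx2-1 a mean of -0.66 and called it, with an adjusted p of 0.00203. It was also called without all libraries of replicate 3 (adjusted p 0.0368). The means of the FoxQ2 copies were both -0.43 (adjusted p 0.319 and 0.255), and those of Six3 copies 1 and 2 were 0.22 and 0.15 (adjusted p 0.504 and 0.654). Leaving that pair out made them -0.19 and -0.18 for FoxQ2 (adjusted p 0.606 and 0.526) and 0.085 and 0.015 for Six3 (adjusted p 0.784 and 0.965). In exact two-sided permutation tests over the labels within each time, the unadjusted p of the mean was 0.0025 for Z133 and 0.0035 for Nkx2-1. It was 0.0878 and 0.0903 for the FoxQ2 copies and 0.204 and 0.361 for the Six3 copies. Without the pair, which allows 2400 labelings, the exact permutation p was 0.000833 for Z133 and for Nkx2-1, the smallest this test can give. It was then 0.384 and 0.369 for the FoxQ2 copies and 0.637 and 0.789 for the Six3 copies. This permutation setting was added after seeing the data. The pair left out is the only 1 in which Z133 and Nkx2-1 were higher in ethanol embryos. Among the remaining libraries the groups of these 2 genes do not overlap at any time, so the test could only give its smallest p. At a single time, 3 libraries against 3 cannot give an exact permutation p below 0.1.

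The ethanol difference of Z133 was -1.99, -0.999 and -0.24 on the log2 scale at 15, 18 and 21 hpf, and that of Nkx2-1 was -1.14, -0.32 and -0.24. A test of whether the 3 differences were equal gave an unadjusted p of 0.00156 for Z133 and 0.0161 for Nkx2-1, but an adjusted p of 1.00 for both. With the 21 hpf pair of replicate 3 left out the unadjusted p was 0.0033 for Z133 and 0.0157 for Nkx2-1, again with an adjusted p of 1.00. A change of the ethanol effect with time was therefore not shown for any member. With all libraries edgeR called 0 models of the whole table in that test, and 413 had an unadjusted p under 0.05, while DESeq2 called 12. Without the pair edgeR called 2 models.

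**Figure D3:**
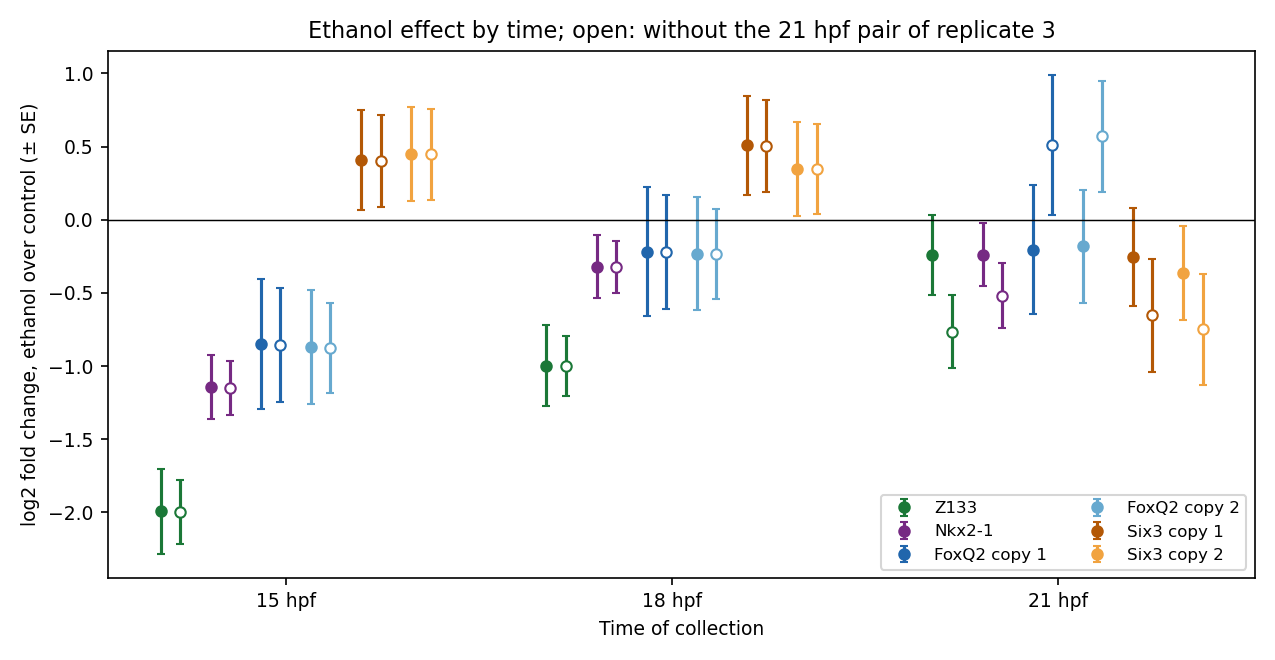
Log2 fold change of ethanol over control embryos with its SE (vertical axis) at each time for the 6 gene models, with filled points for all libraries and open points without the 21 hpf pair of replicate 3. Z133 is lowest at 15 hpf at -1.99, and at 21 hpf the open FoxQ2 points lie above 0 at 0.51 and 0.57 while the filled points lie below.

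Between 15 and 21 hpf, Z133 and Nkx2-1 rose in ethanol embryos. The mean of Z133 was 6.81 ± 1.69 CPM at 15 hpf, 19.5 ± 1.46 CPM at 18 hpf and 29.1 ± 8.52 CPM at 21 hpf in ethanol embryos (SD, n = 3 each). In control embryos it was 27.1 ± 4.45, 39.1 ± 3.00 and 34.5 ± 11.4 CPM at these times. The log2 change from 15 to 21 hpf was 2.10 in ethanol embryos (SE 0.29, edgeR adjusted p 0.000909) and 0.35 in control embryos (SE 0.27, adjusted p 0.576). Nkx2-1 changed by 1.11 in ethanol embryos (SE 0.22, adjusted p 0.00839), and by 0.20 in control embryos (SE 0.21, adjusted p 0.703). In all, 3.75% of models were called in ethanol embryos, 2.97% as higher, and 3.88% were called in control embryos. Leaving out the 21 hpf pair of replicate 3 gave changes in ethanol embryos of 1.83 for Z133 and 1.04 for Nkx2-1, called at adjusted p-values of 0.00117 and 0.011 where 2.68% of models were called. In control embryos the changes were then 0.60 for Z133 and 0.41 for Nkx2-1 (adjusted p 0.157 and 0.298). The call of Z133 was lost without replicate 1 (adjusted p 0.0679), and that of Nkx2-1 without replicate 1 (adjusted p 0.244) and without replicate 3 (adjusted p 0.115).

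FoxQ2 ran the other way with age. Its log2 change from 15 to 21 hpf was -0.62 for copy 1 and -0.46 for copy 2 in ethanol embryos (adjusted p 0.570 and 0.653). In control embryos it was -1.26 for copy 1 (SE 0.45, adjusted p 0.135) and -1.14 for copy 2 (SE 0.39, adjusted p 0.120). None of these was called in edgeR's fit of all libraries without the block. When the 21 hpf pair of replicate 3 was left out, neither copy was called in ethanol embryos (-0.35 for both, adjusted p 0.836 and 0.773). Both then fell in control embryos, with log2 changes of -1.72 (adjusted p 0.0453) and -1.79 (adjusted p 0.0108), where 5.46% of models were called. Neither Six3 copy was called in either series, with a change of -0.51 for copy 2 in ethanol embryos and of 0.66 and 0.31 for copies 1 and 2 in control embryos. The change of copy 1 in ethanol embryos was near 0 and took either sign across settings. No Six3 change with age was called without the pair either, with adjusted p-values from 0.160 to 0.929.

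Ordered by mean CPM, the Z133 groups ran from ethanol at 15 hpf, the lowest, through ethanol at 18 hpf to control at 15 hpf, ethanol at 21 hpf, control at 21 hpf and control at 18 hpf. The 2 lowest groups overlapped neither each other nor control at 15 hpf. Each of the upper 4 overlapped with its neighbour, but control at 15 hpf did not overlap with control at 18 hpf. With the 21 hpf pair of replicate 3 left out, the Z133 means at 21 hpf were 24.2 CPM in ethanol embryos and 41.0 CPM in control embryos (2 libraries each). Control at 21 hpf then became the highest group, and ethanol at 21 hpf came below control at 15 hpf. For Nkx2-1 only ethanol at 15 hpf was apart, and the neighbours among the other 5 groups overlapped, but without that pair control at 21 hpf was apart at the top as well. For FoxQ2 control at 15 hpf had the highest mean, 253 CPM for copy 1 and 255 CPM for copy 2. That group was apart from all others for copy 2. For copy 1 it did not overlap with the next group in the order, control at 18 hpf, but 1 ethanol library at 18 hpf reached 225 CPM, above the lowest control library at 15 hpf at 219 CPM. All other neighbours overlapped, with or without that pair. For both Six3 copies every group overlapped with its neighbour in the order of all libraries.

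Across the 18 libraries, Z133 and Nkx2-1 were each other's closest match. Pearson's r of their log2 CPM was 0.972, the highest that either had with any of 11019 named models of sufficient level. The next closest to Z133 were RapL (0.966), Nkx3-2 (0.965), Hypp_3009 (0.955) and Hox7 (0.953). The next closest to Nkx2-1 were Nkx3-2 (0.969), RapL (0.939), Hox7 (0.932) and Sfk7 (0.907). The FoxQ2 copies were each other's closest match, at an r of 0.931. AccsL (0.901), Ajpx2 (0.876), Mftc (0.849) and Pp1r8 (0.845) followed for copy 1, and Ajpx2 (0.899), Zbed1-4 (0.895), Mftc (0.874) and Unc44_123 (0.858) for copy 2. Six3 copies 1 and 2 had an r of 0.721 with each other. Tob (0.729), Sparc_2 (0.715), FAD-dep_OxRdtase (0.669) and Sirt2 (0.656) stood with copy 1, and Styx (0.714), Mras (0.702), Mtmr14 (0.690) and Limk (0.669) with copy 2. Between the genes, Z133 had an r of -0.13 and -0.066 with the FoxQ2 copies and -0.038 and -0.31 with the Six3 copies. Over the 16 libraries without the 21 hpf pair of replicate 3, r was 0.977 between Z133 and Nkx2-1, still each other's closest match, 0.943 between the FoxQ2 copies and 0.714 between the Six3 copies. Z133 then had an r of -0.044 and -0.0063 with the FoxQ2 copies and -0.09 and -0.35 with the Six3 copies. These coefficients describe libraries that share their treatment, time and scaling, and carry no test.

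**Figure D4:**
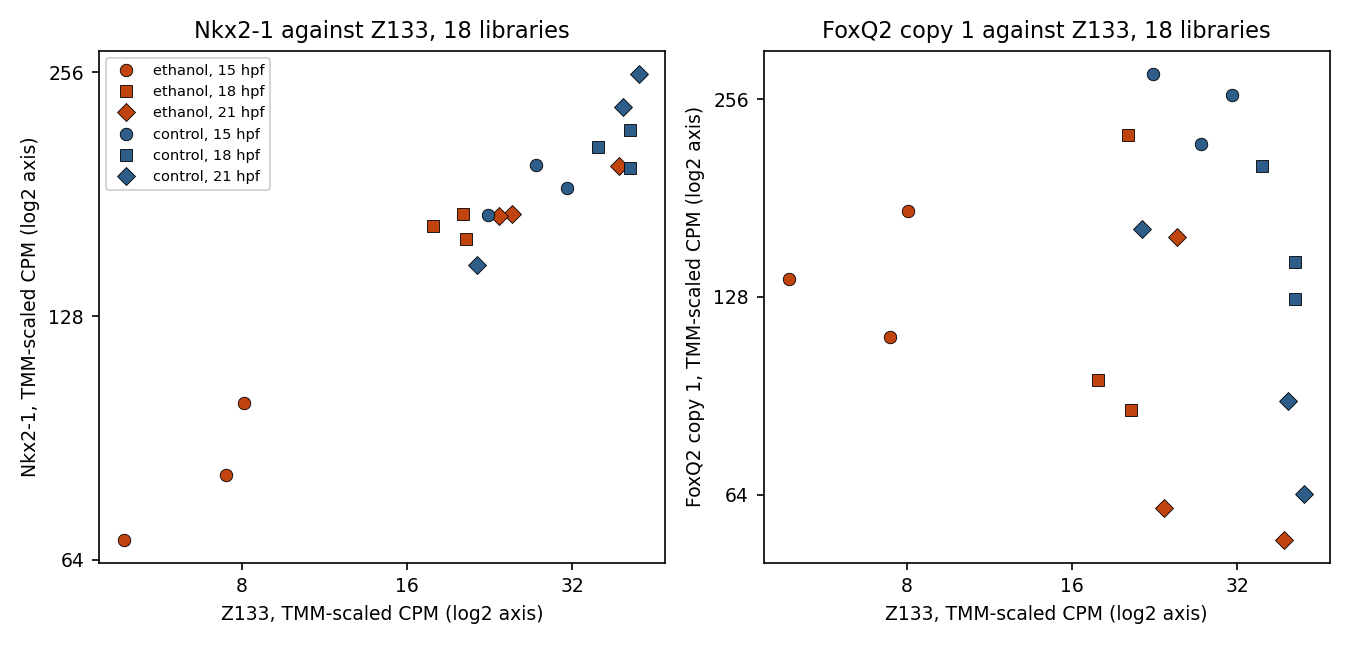
Nkx2-1 (left) and FoxQ2 copy 1 (right) against Z133 in TMM-scaled CPM on log2 axes, with 1 point for each of the 18 libraries. Nkx2-1 lies along a line with Z133 (r 0.972), from the ethanol libraries at 15 hpf at the low end, whereas FoxQ2 copy 1 shows no such line (r -0.13).

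The 2 FoxQ2 models span nearly the same length, 990 and 996 bases, so length hardly affects a comparison of their CPM. The ratio of copy 1 to copy 2 ran from 0.636 to 1.22 with a median of 0.939, and copy 1 was the higher in 8 of 18 libraries. How reads were divided between the copies was not tested, so this ratio may not reflect their expression. With the reads of same-named copies summed, the log2 fold change at 15 hpf was -0.86 for FoxQ2 (adjusted p 0.458) and 0.43 for Six3 (adjusted p 0.615), and neither gene was called in any ethanol comparison.

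A list of 31 further genes of the anterior neuroectoderm, of neurons and of the Wnt signals that bound the territory matched 29 names and 38 gene models, of which 35 were tested. Like the members, the list was drawn up with earlier results of these data known. At 15 hpf 3 of the 35 models fell in ethanol embryos and 0 rose, or 8.57%, against 0.0589% of all models. They were Sfrp1/5 and Dkk3, which encode secreted modulators of Wnt signalling, and Nkx3-2, a homeodomain factor. The median log2 fold change of the list was -0.16, against 0.041 for all models.

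Sfrp1/5 stood at 34.9, 40.2 and 33.0 CPM in ethanol embryos at 15 hpf, against 228, 279 and 191 CPM in control embryos. The difference was -2.69 on the log2 scale (SE 0.32) at an adjusted p of 0.00445 in edgeR's test. Nkx3-2 stood at 5.11, 14.3 and 7.48 CPM in ethanol embryos, against 61.3, 70.0 and 64.3 CPM in control embryos. On the log2 scale it differed by -2.87 (SE 0.38, adjusted p 0.00627). Dkk3 stood at 12.3, 12.7 and 12.4 CPM in ethanol embryos, against 39.3, 45.3 and 35.2 CPM in control embryos, a log2 fold change of -1.68 (SE 0.25, adjusted p 0.0132). For all 3 genes the groups were far apart at 15 hpf. With the replicate block, Hh, the hedgehog ligand (-1.59, adjusted p 0.0250), and the Lhx2 model L_var_23544, a LIM homeodomain factor (-2.14, adjusted p 0.0250), were called lower as well, which made 5 of 35, against 0.477% of all models. Leaving out the 21 hpf pair of replicate 3 also gave 5 of 35, namely Sfrp1/5, Nkx3-2, Dkk3 and both Lhx2 models, against 0.414% of all models.

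**Figure D5:**
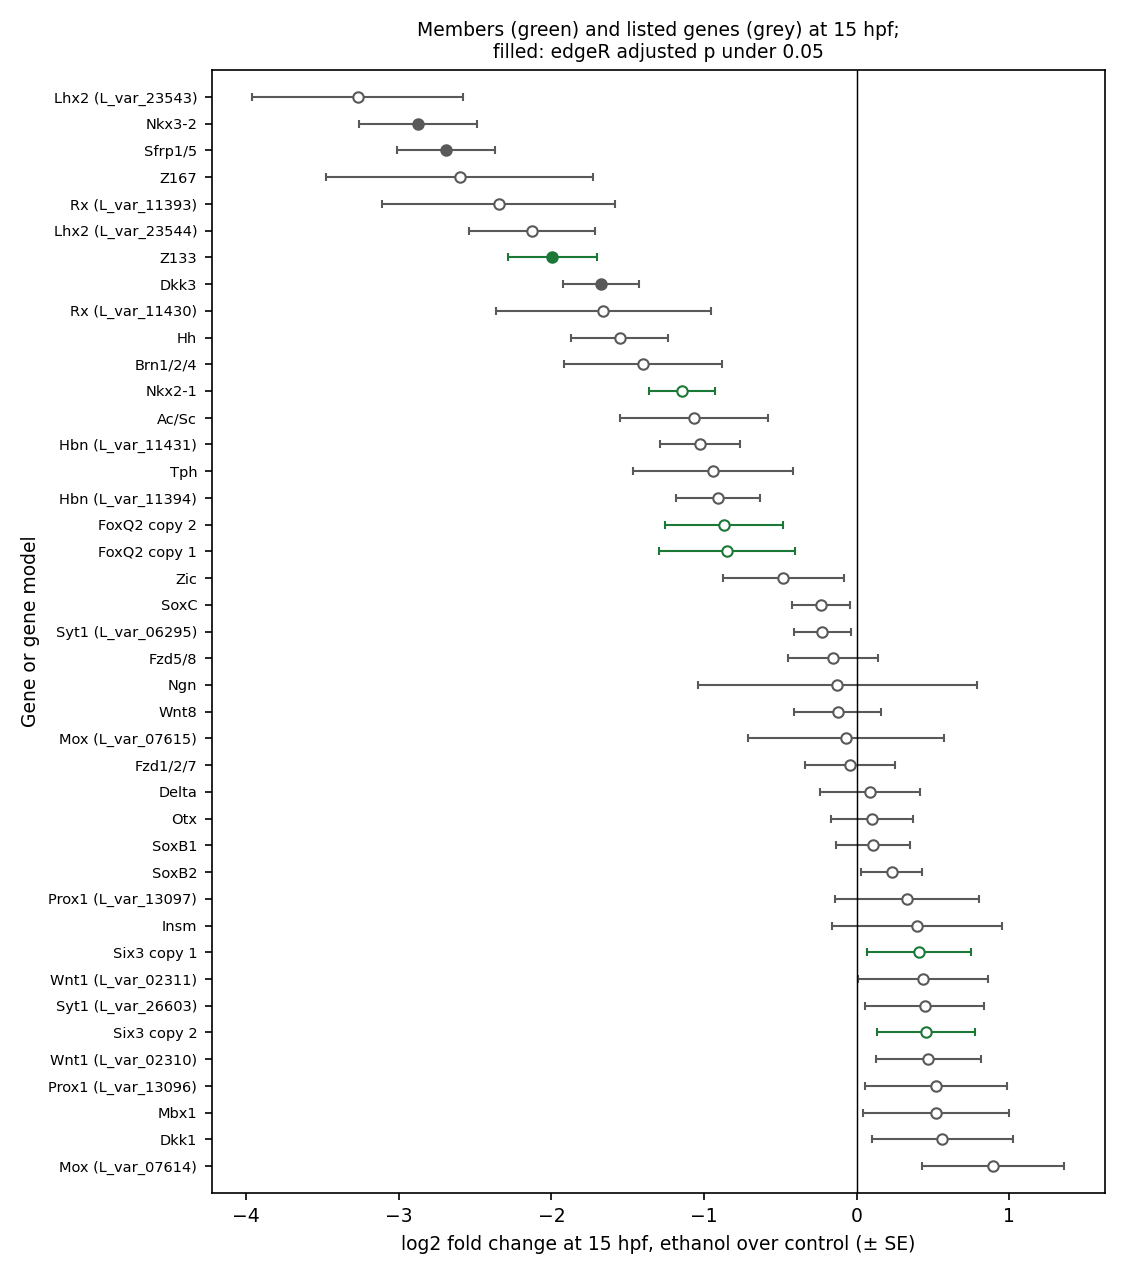
Log2 fold change of ethanol over control embryos at 15 hpf with its SE (horizontal axis) for the 6 member models (green) and the 35 listed models (grey), filled where edgeR's adjusted p was under 0.05. Z133 and, among the listed genes, Sfrp1/5, Nkx3-2 and Dkk3 are filled, all below 0, and both Six3 copies lie above 0.

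At 18 hpf none of the 35 listed models was called without the block, where edgeR called 0 of all models at an adjusted p under 0.05, 3070 had an unadjusted p under 0.05 and DESeq2 called 278. With the block 6 fell and 1 rose, or 20%, against 4.07% of all models. The 6 were Sfrp1/5 (-1.58), Nkx3-2 (-1.32), Lhx2 L_var_23544 (-1.39), Brn1/2/4 (-1.47), a POU-domain factor of neural cells, Tph (-1.89), tryptophan hydroxylase of serotonin synthesis, and Z167 (-2.96), a zinc finger gene. Their adjusted p-values lay between 0.0426 and 0.0488. Tph stood at 1.60, 0.940 and 1.16 CPM in ethanol embryos, against 4.27, 7.65 and 2.41 CPM in control embryos. The gene that rose was Prox1, a homeodomain factor, through its model L_var_13096 (1.71, adjusted p 0.0462). With the 21 hpf pair of replicate 3 left out and no block, 5 fell and 0 rose, against 1.65% of all models called. They were Sfrp1/5, Nkx3-2, both Lhx2 models and Z167.

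At 21 hpf, with all libraries and no block, none of the listed models and none of the members was called, and edgeR called 0 of all models, with 128 at an unadjusted p under 0.05 and 0 called by DESeq2. Over the 3 times 5 of 35 listed models were lower in ethanol embryos, or 14.3%, against 0.530% of all models, and 0 were higher. These were Sfrp1/5 (-1.43), Nkx3-2 (-1.48), Dkk3 (-0.91) and the Lhx2 models L_var_23543 (-1.95) and L_var_23544 (-1.37). The median of the list was -0.083, against 0.031 for all models. When the 21 hpf pair of replicate 3 was left out the count was 14 lower and 4 higher, or 51.4%, where 18.3% of all models were called. The 4 higher models were those of Wnt1 (0.66 and 0.73), a Wnt ligand, and Prox1 (0.99 and 0.88), and among the lower ones were Tph (-1.36) and both models of Hbn (-0.54 and -0.59), a homeodomain factor of the anterior ectoderm. The reads of models that share a name may be divided between them. Markers of other territories, described below, were also called often over the 3 times without that pair. Their shares ran from 14.3% for endoderm to 50% for ciliary band and pigment cells.

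From 15 to 21 hpf, 5 of the 35 listed models rose in ethanol embryos and 0 fell, or 14.3%, against 3.75% of all models called and 2.97% called higher. They were Sfrp1/5 (2.57, adjusted p 0.0005), Nkx3-2 (2.66, adjusted p 0.00114), Hh (2.32, adjusted p 0.000938) and both Lhx2 models (3.05 and 2.06, adjusted p 0.0188 and 0.00916). In control embryos 0 rose and 3 fell, or 8.57%, against 3.88% of all models. The 3 were Dkk3 (-1.22, adjusted p 0.0117), SoxC (-0.77, adjusted p 0.0299) and Wnt8 (-1.17, adjusted p 0.0305). SoxC and Wnt8 were chosen for naming after their values were seen. Sfrp1/5, Nkx3-2 and Hh had changes of -0.076, 0.011 and 0.45 in control embryos, none of them called. Without the 21 hpf pair of replicate 3 the same 5 models rose in ethanol embryos, where 2.68% of all models were called, and 2 fell in control embryos, Dkk3 and Wnt8, where 5.46% were called. The difference between the ethanol and control series was not called for any listed model, with Sfrp1/5 closest at an adjusted p of 0.505.

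Markers of other territories were measured in the same libraries, since in RNA of whole embryos fewer cells of a type and less RNA per cell cannot be told apart. Of the models for skeletogenic mesenchyme, endoderm, pigment cells, ciliary band, oral ectoderm and aboral ectoderm, none was at 0 in all libraries, and none was called at 15, 18 or 21 hpf without the block. With the block Hox7, an aboral ectoderm gene, was lower in ethanol embryos at 15 hpf (-2.04, adjusted p 0.0138) and at 18 hpf (-1.31, adjusted p 0.0462). Both models of Onecut, a ciliary band marker, were then lower at 18 hpf (-1.06 and -1.16, adjusted p 0.0454 and 0.0462). With the block 0.477% of all models were called at 15 hpf and 4.07% at 18 hpf. From 15 to 21 hpf in ethanol embryos, without the block, 2 of 5 aboral, 2 of 7 endoderm and 1 of 2 ciliary band models were called higher. There 2 of 11 skeletogenic models were called lower, while 3.75% of all models were called, 2.97% as higher. With the 21 hpf pair of replicate 3 left out, 1 aboral model was called lower at 15 hpf, and at 18 hpf 1 Onecut model was called lower and 1 oral model higher. Of all models 0.414% and 1.65% were then called at these times. Over the 3 times, with all libraries and no block, 1 of 5 aboral models was called lower, against 0.530% of all models called. No model of the other lists was called there. Without the pair 4 of 11 skeletogenic models were higher and 1 lower. Then 2 of 5 oral, 1 of 2 pigment and 1 of 7 endoderm models were higher, and 1 of 2 ciliary band models was lower. Of the 5 aboral models 1 was higher and 1 lower. In that setting 18.3% of all models were called. The summed CPM of the 2 Onecut models was 44.7 to 65.2 in ethanol embryos at 15 hpf, against 98.8 to 103 in control embryos. At 18 hpf it was 93.5 to 114 in ethanol embryos, against 181 to 285 in control embryos, and at 21 hpf the ranges overlapped. At 15 hpf the sums of all 5 other lists overlapped between the groups, and those of the aboral ectoderm list were 464 to 619 in ethanol embryos, against 563 to 723 in control embryos. At 18 hpf the sums of aboral ectoderm markers were 727 to 807 in ethanol embryos, against 816 to 1007 in control embryos. Those of oral ectoderm markers were 507 to 584 in ethanol embryos, against 323 to 429 in control embryos, and those of pigment cell markers were 6986 to 7328 in ethanol embryos, against 3478 to 6683 in control embryos. Those of skeletogenic markers overlapped, at 2743 to 3305 in ethanol embryos, against 3255 to 4158 in control embryos, and so did those of endoderm markers. Within the aboral, oral and skeletogenic lists, models ran both ways at 18 hpf. Mean CPM in ethanol against control embryos was 116 against 281 for Hox7, but 299 against 252 for Tbx2/3 L_var_04520. It was 81.7 against 120 for Gsc, but 183 against 71.9 for Chordin L_var_21972. For Sm30A it was 766 against 1951, but 87.5 against 37.1 for Alx1. Except for Hox7, these genes were chosen for naming after their values were seen. The part of these other markers in the differences of Z133 and Nkx2-1 was not tested.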

How the data were processed

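Read counts per gene model, deposited by the authors as whole numbers with 1 column per sample, were used as deposited. Per the submitters' processing notes, fastp, STAR and featureCounts were used; their versions, the strand setting and the genome build are not given in the sources used here. The deposited annotation gives best hits in S. purpuratus and UniProt with their percent identity, per the file headers. Letters A, B and C of the deposited sample sheet were taken as replicates 1, 2 and 3. In R 4.3.3, edgeR 4.0.16 was run with TMM scaling and filterByExpr (minimum count 10, minimum total 15). All 18 samples entered 1 quasi-likelihood fit with a mean for each of the 6 groups, from which 7 comparisons were drawn. Tests were two-sided, with Benjamini-Hochberg adjustment within each comparison over all models tested and a threshold of 0.05. The SE of a log2 fold change is its size over the square root of F, an approximation. DESeq2 1.42.0, other size factors, no filter, a replicate block, and leaving out replicates or the 21 hpf pair of replicate 3 were the alternatives. The fit was tested on simulated data.

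Pairing was checked by correlating, across genes, how far same-numbered ethanol and control libraries lay from the mean of their group, in log2 CPM (prior count 2). The correlations were 0.742, 0.715 and 0.600 at 15 hpf and 0.630, 0.680 and 0.655 at 18 hpf, so the numbers pair the libraries there. At 21 hpf they were 0.156, 0.402 and -0.22. Deviations within a group sum to 0, so the pair of replicate 3 affects all 3 values. Pairing of replicates 1 and 2 at that time was therefore not settled. Without that pair, adding the block raised the models called at 21 hpf from 12 to 2037. For comparisons that include 21 hpf, the block on all libraries is given only with the other alternatives in the closing section. The block assumes that a number means the same at all times, which was not tested. Its fit at 15 and 18 hpf also draws on the 21 hpf libraries. The members are named whatever they show. Other listed genes are named where an adjusted p was under 0.05 in an ethanol comparison, with or without the block, and for likeness the 5 models with the highest r. Members and lists were chosen with earlier results of these data known. How alike the same-named copies are, and how reads were divided between them, was not tested. Sequences were not used here.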

Additional observations from a re-analysis of the deposited data

How the results depend on the processing

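The members kept their direction and their side of the threshold in 399 comparisons with an alternative setting, 25 became called, 9 lost their call, and 17 reversed, all of them values not called. These counts include the exact permutation tests, judged by an unadjusted p under 0.05. At a single time that p cannot fall below 0.1, so the lost call of Z133 at 15 hpf was fixed in advance. Nkx2-1 over the 3 times counts as called in these tests, at unadjusted p-values of 0.0035 and, without the pair, 0.000833. With the replicate number as a block, edgeR called 89 models at 15 hpf (11 without it), 760 at 18 hpf (0), 3950 over the 3 times (99), 2245 from 15 to 21 hpf in ethanol embryos (700) and 2475 in control embryos (725). Under the block the values called where the fit without it called none were Z133 at 18 hpf (-0.99), Nkx2-1 at 15 hpf (-1.15) and over the 3 times (-0.57, adjusted p 0.0104), and FoxQ2 copy 1 from 15 to 21 hpf in control embryos (-1.22, adjusted p 0.0443). The block gave no other change of call for a member.

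DESeq2 called 156 models at 15 hpf, 278 at 18 hpf, 1453 over the 3 times, 1318 with age in ethanol embryos and 1481 in control embryos, and 12 for time dependence. It also called Z133 at 18 hpf (-0.997, adjusted p 0.0428), Nkx2-1 at 15 hpf (-1.15) and over the 3 times (-0.57), and FoxQ2 copy 2 with age in control embryos (-1.16, adjusted p 0.0458). Without the 21 hpf pair of replicate 3 the counts were 79, 316 and 12 at 15, 18 and 21 hpf, 3500 over the 3 times and 2 for time dependence. That setting called Z133 at 18 hpf (-1.001) and Nkx2-1 at 15 hpf (-1.15) and over the 3 times (-0.66), and turned the FoxQ2 copies at 21 hpf to 0.51 and 0.57. With the block added to it the counts were 2943, 5134 and 2037 at the 3 times, 8671 over them, 2241 with age in ethanol embryos and 3517 in control embryos, and 38 for time dependence. It then called Z133 at 18 hpf (-0.99) and 21 hpf (-0.76, adjusted p 0.026), Nkx2-1 at 15 hpf (-1.16) and over the 3 times (-0.66), and both FoxQ2 copies at 15 hpf (-0.84 and -0.88). The FoxQ2 copies at 21 hpf were 0.43 and 0.54.

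The exact permutation test gave -1.97 for Z133 at 15 hpf at p 0.1, the smallest it can give there, and -0.56 for Nkx2-1 over the 3 times at p 0.0035. Without the 21 hpf pair of replicate 3, a setting added after seeing the data, it gave -0.66 at p 0.000833. Six3 copy 1 with age in ethanol embryos was 0.039 with the block, 0.0033 with DESeq2 size factors, 0.0039 with DESeq2 and 0.023 without a filter. Size factors, the filter and the summing of same-named copies, which was chosen after seeing the data, changed no call of a member. Leaving out each replicate number in turn gave 0 to 2, 0 to 1 and 0 to 4 called models at 15, 18 and 21 hpf, 0 to 1076 over the 3 times, 55 to 509 with age in ethanol embryos and 0 to 331 in control embryos. Z133 then ranged from -2.06 to -1.90 at 15 hpf, from -0.75 to 0.077 at 21 hpf and from -1.27 to -0.95 over the 3 times, and Nkx2-1 from -0.64 to -0.50 over the 3 times. The means over the times ranged from -0.75 to -0.13 for FoxQ2 copy 1, from -0.68 to -0.033 for copy 2, from 0.096 to 0.32 for Six3 copy 1 and from 0.013 to 0.41 for copy 2. At 21 hpf FoxQ2 copy 1 ranged from -0.94 to 0.52, copy 2 from -0.73 to 0.58, Six3 copy 1 from -0.64 to 0.38 and Six3 copy 2 from -0.74 to 0.17. FoxQ2 copy 2 ranged from -0.54 to 0.040 at 18 hpf and from -0.89 to 0.034 with age in ethanol embryos. Six3 copy 1 with age in ethanol embryos ranged from -0.21 to 0.27, and Six3 copy 2 in control embryos from -0.16 to 0.52. The cause of these changes was not tested. With 3 replicates per group and counts down to 44, small differences between groups were not detectable.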
